A study of Mus musculus with 30 samples.

Results

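The genes described here are the mucin-type and N-glycan glycosyltransferases, the enzymes that start, branch, lengthen and cap the sugar chains of mucins and other glycoproteins. They were taken by symbol, as the numbered members of the families Galnt, C1galt, Gcnt, B3gnt, B3galt, B4galt, Mgat, Fut, St3gal, St6gal and St6galnac, with 1 family member left out by the rule. In all, 60 of the 13456 genes listed in at least 1 table were members. Messenger RNA was sequenced from 30 mouse samples in 10 groups of 3, from 3 experiments. Colon epithelium came from C57BL/6J mice, either Smad4+ controls or mice named Smad4ΔLrig1 (Smad4 knockout), a name that joins the deleted gene to Lrig1, a gene of intestinal stem and progenitor cells. Cultures labelled as IMCfl/fl Smad4+ colonocytes stayed untreated or received TNF, TGFB1 together with BMP2, or the 3 ligands at once, at doses and times that the labels do not state. Colonoids, organoids of colon epithelium, came from the lines L42, L43 and L46. They received vehicle, TNF at 100 ng/mL, TGFB1 at 3 ng/mL with BMP2 at 10 ng/mL, or all 3 ligands. The colonoid groups share their lines, and their labels give no genotype. The ages of the mice are not stated in the labels. The label of the cultured colonocytes does not say what sets their replicates apart. P-values there describe the spread between libraries, and its source is not known.

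Mucin-type O-glycosylation begins in the Golgi when a polypeptide GalNAc transferase (Galnt) places a first sugar on serine or threonine. C1galt1, with its chaperone C1galt1c1, adds galactose to form core 1, B3gnt6 forms core 3 instead, and Gcnt enzymes add branches. N-glycans are built on a lipid carrier, moved as a block to asparagine, trimmed, and then rebuilt by the Mgat enzymes, each of which starts a branch or, for Mgat3, a bisecting residue. Many B3gnt, B3galt and B4galt enzymes lengthen both kinds of chain. Some act elsewhere, among them B3gnt5, B4galt5 and B4galt6 on glycolipids and B4galt7 on the proteoglycan linker. Fucosyltransferases (Fut) and sialyltransferases (St3gal, St6gal, St6galnac) cap both kinds of chain. In the colon these chains make up most of the mass of the mucins that goblet cells secrete and of those that coat absorptive cells. Smad4 carries the signals of both TGFB and BMP receptors to the nucleus, and TNF is an inflammatory cytokine.

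Promoter sequences are shown for C1galt1 and B4galt1, 2 of the members with the largest rises in colonoids given TGFB1 and BMP2. Each runs from 250 bases before to 50 bases after the RefSeq start, on GRCm38.p6, 5′ to 3′ on the gene's strand. The first lies at chr6:7844974-7845273 on the plus strand, the second at chr4:40853935-40854234 on the minus strand. Capitals mark matches to GGCGCC, a GC-rich motif that Smad proteins can bind.
C1galt1: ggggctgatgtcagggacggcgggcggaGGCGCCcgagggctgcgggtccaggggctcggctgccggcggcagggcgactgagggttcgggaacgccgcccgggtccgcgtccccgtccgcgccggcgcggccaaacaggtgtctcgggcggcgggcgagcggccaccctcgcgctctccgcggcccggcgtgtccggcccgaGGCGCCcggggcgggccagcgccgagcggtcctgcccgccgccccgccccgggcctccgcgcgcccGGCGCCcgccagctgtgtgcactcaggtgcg
B4galt1: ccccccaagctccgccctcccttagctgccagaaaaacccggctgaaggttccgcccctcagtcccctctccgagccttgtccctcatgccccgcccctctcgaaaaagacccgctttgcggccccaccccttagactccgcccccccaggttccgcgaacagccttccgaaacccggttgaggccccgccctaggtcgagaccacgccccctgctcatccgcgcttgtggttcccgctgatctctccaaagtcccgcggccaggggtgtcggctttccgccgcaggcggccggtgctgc
The search covered GGCGCC, the Smad-binding motif CAGAC and the AP-1 motif TGACTCA, on both strands. The C1galt1 window held 3 GGCGCC matches and neither other motif, and the B4galt1 window held none of the 3 motifs. Over all 32851 RefSeq mouse promoters of this length, 11.9% held GGCGCC, 49.6% held CAGAC and 5.20% held TGACTCA. The table held 62 promoters of 40 members, and of these 16.1%, 38.7% and 0% held the motifs in the same order. A match is a match of letters only.

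Library depth was 42.2 to 61.7 M reads for colonoids, 21.6 to 42.9 M for colonocytes and 23.2 to 28.6 M for epithelium. Values are CPM as deposited, reads scaled to an effective library size that was set in each table, and log2 changes and their SE are of log2(CPM + 1), which understates the change of genes at low levels. A gene is called higher or lower, or said to rise or fall, where its limma p, adjusted by Benjamini-Hochberg over all genes of the table, is under 0.05. Smad4 itself fell in the knockout, from 132, 148 and 152 CPM to 47.8, 59.2 and 46.1 CPM, with no overlap. The cultures labelled colonocytes went against that label: Epcam, Krt20 and Vil1, which define epithelium, and the 10 goblet, 6 absorptive and 10 mucin and mucus genes that the epithelium table lists were absent from their tables. Cdh1 was listed in 2 of their 3 tables, and the keratins Krt8, Krt18 and Krt19 were listed and summed to 33.8 to 45.9 CPM in untreated cultures. All 7 stromal genes were listed and summed to 6930 to 7430 CPM. They are called cultures labelled colonocytes below. Epithelium and colonoids carried epithelial and goblet cell markers in every table. In knockout library 1, the keratin Krt19 stood at 173 CPM, against 2240 to 3610 CPM in the other 5 epithelial libraries.

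Of the 60 members, 38 were listed in all 7 tables. Another 15 were listed in epithelium and colonoids and not in the cultures labelled colonocytes. They were Galnt3, Galnt5, Galnt6, B3gnt6, Gcnt3, Gcnt4, B3gnt5, B3gnt7, B3galt5, Fut1, Fut2, Fut4, Fut9, Mgat4c and St6galnac1, and they include the core 3 enzyme and the main branching enzyme of mucin O-glycans. A further 4 members, B3galt1, B4galt2, Fut10 and Galnt18, were listed only in the cultures labelled colonocytes, and B3galt2 only in epithelium. St3gal2 was listed in both cultures and not in epithelium, and B3gnt9 in every table except those of colonoids given TGFB1 and BMP2. A gene that a table does not list fell below the authors' filter there and has no value. Every listed member had a mean of at least 1 CPM and was tested.

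Levels per kilobase of exon separated the 3 systems, as a description across tables that were normalized separately. In control epithelium the highest member was St6galnac6, which adds sialic acid to GalNAc residues, at 153 ± 11 CPM per kb (SD, n = 3). Mgat4b, which starts an N-glycan branch, stood next at 138 ± 7.39, and the ranges of the 2 genes overlapped. B3galt5, which makes type 1 chains, followed at 94.3 ± 11.9, St3gal4 at 87.9 ± 10.9 and B3gnt3, which extends core 1, at 85.9 ± 3.51 CPM per kb, and these 3 did not differ beyond their spread. In vehicle colonoids Mgat4b was highest at 94.5 ± 11.7, then St3gal4 at 69.9 ± 18.9 and B3gnt3 at 60.4 ± 7.75 CPM per kb. In untreated cultures labelled colonocytes the order was different, with St3gal2 at 56.6 ± 0.261, Galnt2 at 52.6 ± 3.19, Mgat2 at 48.7 ± 0.369 and B4galt1 at 47.6 ± 3.07 CPM per kb. Galnt2 shares 90% of its exon bases with an overlapping gene model on the same strand, so its level is uncertain.

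**Figure D1:**
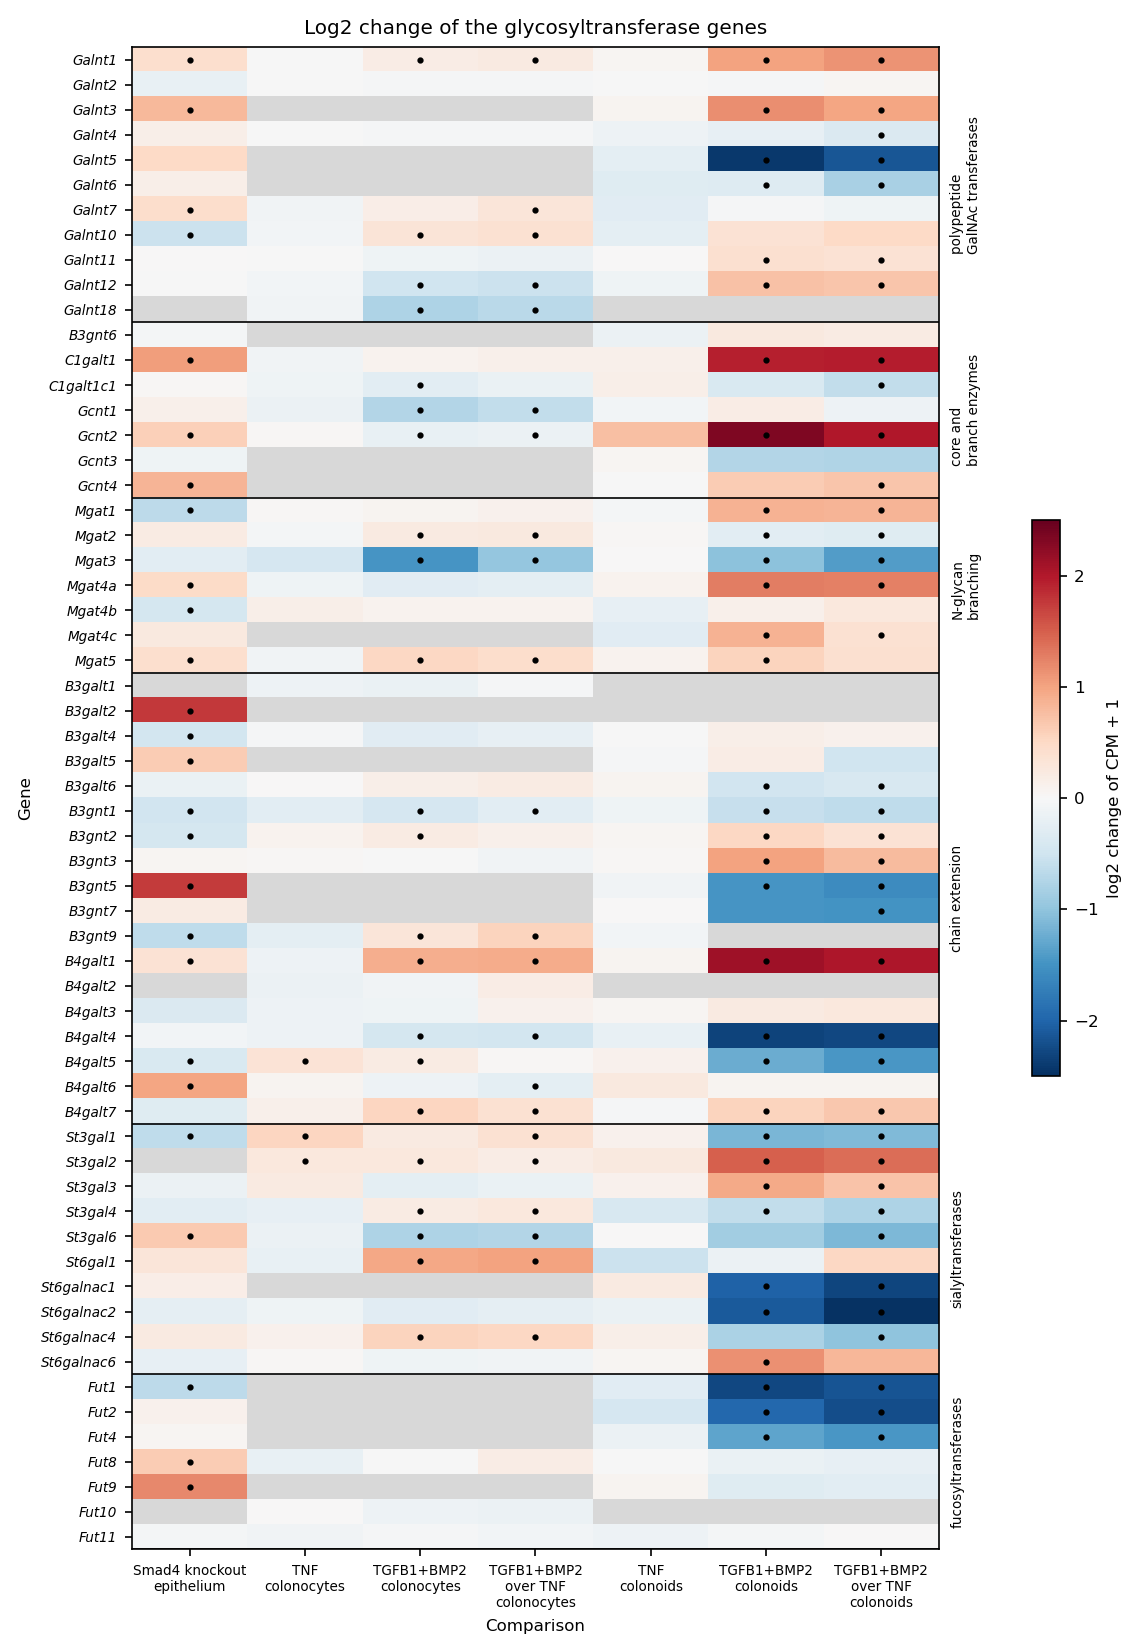
Log2 change, on the log2(CPM + 1) scale, of each member (rows, grouped by role) in the 7 comparisons (columns), with a dot on each called value and grey for members not listed. The TNF columns are pale, and Gcnt2, at 2.33, is the deepest red in the column of colonoids given TGFB1 and BMP2.

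In the colon epithelium of Smad4 knockout mice, 16 of 55 listed members were higher and 10 were lower than in controls. Over all genes tested, 19.8% were called higher and 19.9% lower. The median log2 change of the members was 0.06, against 0.00 over all genes. The core and branch enzymes, counted here with Gcnt2 of poly-lactosamine chains, gave 3 rises and 0 falls of 7. The Galnt enzymes gave 3 rises and 1 fall of 10. Chain-extending enzymes went both ways (5 rose and 5 fell of 16), as did the N-glycan branching enzymes (2 and 2 of 7).

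Among the core enzymes, C1galt1, the core 1 synthase, stood at 79, 98.2 and 114 CPM in the 3 controls and 177, 217 and 209 CPM in the 3 knockouts. Every knockout library was above every control, and the gene rose by 1.05 log2 units (SE 0.14, adjusted p = 0.000545). Its chaperone C1galt1c1 had a log2 change of 0.02 (SE 0.16, adjusted p = 0.92), with overlapping groups. Gcnt4, a core 2 branching enzyme, stood at 20.1, 17.9 and 18.7 CPM in controls and 33.1, 33.2 and 37.9 in knockouts. The groups were apart and it rose by 0.84 log2 units (SE 0.12, adjusted p = 0.000656). Gcnt2, which branches poly-lactosamine chains into I antigen, stood at 14.4, 13.9 and 14.1 and 19.1, 22.4 and 24.8 CPM. It rose by 0.6 log2 units (SE 0.13, adjusted p = 0.00554), again without overlap. Gcnt3, the branching enzyme of mucin cores 2 and 4, had the highest level of its family per kb and a log2 change of -0.1 (SE 0.13, adjusted p = 0.556). B3gnt6, the core 3 synthase, had a log2 change of -0.05 (SE 0.24, adjusted p = 0.894), and Gcnt1 one of 0.13 (SE 0.23, adjusted p = 0.681); the groups overlapped for both.

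Of the Galnt enzymes, Galnt3 stood at 111, 103 and 117 CPM in controls and 172, 212 and 204 CPM in knockouts. All 3 knockout libraries were higher and it rose by 0.82 log2 units (SE 0.11, adjusted p = 0.00055). Galnt10, which acts on peptides that already carry GalNAc, went the other way, from 196, 236 and 211 to 172, 137 and 136 CPM. It fell by 0.53 log2 units (SE 0.12, adjusted p = 0.0066), with no overlap. Galnt4 and Galnt12, with the highest levels per kb of the family in this tissue, had log2 changes of 0.15 (SE 0.10, adjusted p = 0.261) and -0.02 (SE 0.09, adjusted p = 0.906), and their groups overlapped.

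The 2 largest rises were in chain-extending enzymes. B3galt2 stood at 3.57, 6.32 and 8.71 CPM in controls and 19.1, 25.2 and 23.4 CPM in knockouts, and it rose by 1.77 log2 units (SE 0.24, adjusted p = 0.000649). B3gnt5, which starts lacto-series chains on glycolipids, stood at 60.8, 62.9 and 72.9 and 185, 289 and 206 CPM. It rose by 1.75 log2 units (SE 0.16, adjusted p = 0.000119), and the lowest knockout was more than the highest control for both genes. B4galt6, a lactosylceramide synthase, went from 48, 39.2 and 43.4 to 83.7, 86.2 and 91.5 CPM. It rose by 0.99 log2 units (SE 0.11, adjusted p = 0.000248). B3galt5 went from 497, 615 and 631 to 875, 931 and 889 CPM and rose by 0.64 log2 units (SE 0.11, adjusted p = 0.00228). Both were without overlap. B3gnt7, which extends keratan sulfate chains, had a log2 change of 0.2 (SE 0.19, adjusted p = 0.436).

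Caps and N-glycan branches moved in both directions. Fut9, which makes the Lewis X epitope, stood at 6.68, 6.36 and 8.0 CPM in controls and 13.9, 26.2 and 14.5 CPM in knockouts and rose by 1.21 log2 units (SE 0.22, adjusted p = 0.00246). Fut8, which fucosylates the N-glycan core, went from 172, 189.9 and 213 to 261, 321 and 316 CPM and rose by 0.64 log2 units (SE 0.12, adjusted p = 0.00253). The groups did not overlap for either. Fut1 went from 2.42, 2.4 and 3.02 to 1.26, 1.33 and 1.26 CPM and fell by 0.66 log2 units (SE 0.15, adjusted p = 0.00704), while Fut2, the secretor enzyme of colon mucus, had a log2 change of 0.11 (SE 0.12, adjusted p = 0.501). St3gal6 rose without overlap (74.3, 84 and 93.7 to 119, 157 and 124 CPM, log2 change 0.66), though 26% of its exon bases lie opposite those of Dcbld2. St3gal1, which sialylates core 1, went from 16.7, 13.6 and 14.5 to 8.55, 8.56 and 11 CPM and fell by 0.63 log2 units (SE 0.15, adjusted p = 0.00762). Mgat1, which starts the first N-glycan branch, went from 86.8, 96.2 and 87.2 to 63.3, 51.4 and 57.4 CPM and fell by 0.65 log2 units (SE 0.11, adjusted p = 0.00166). Mgat4a, which starts a further branch, went from 261, 288 and 288 to 388, 419.8 and 358 CPM and rose by 0.48 log2 units (SE 0.10, adjusted p = 0.00475). The knockout libraries were all below the controls for St3gal1 and Mgat1 and all above them for Mgat4a. Log2 changes were 0.3 (SE 0.15, adjusted p = 0.148) for St6gal1, 0.16 (SE 0.23, adjusted p = 0.599) for St6galnac1 and -0.27 (SE 0.11, adjusted p = 0.0759) for Mgat3.

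The other 10 called members lost their call when 1 library was left out. They were the rises of B4galt1 (157, 155 and 156 CPM in controls and 198, 211 and 191 CPM in knockouts), Galnt1, Galnt7 and Mgat5, and the falls of B3galt4, B3gnt1, B3gnt2, B3gnt9, B4galt5 and Mgat4b. Their log2 changes ran from -0.63 (B3gnt9) to 0.43 (Galnt7), and their groups did not overlap in the full set. Leaving out control library 2 ended 9 of these calls, knockout library 2 ended 7, control library 3 ended 3 and knockout library 3 ended 1, with adjusted p between 0.0512 and 0.204. The count of called members was then 17 without control library 2, beside 2721 of 11606 genes. B3galt4 also lost its call with total listed reads as the scaling. The symbol B3gnt1 stands for 2 different genes in the annotation, and 58.6% of the exon bases of B3gnt2 lie in the gene model Gm28048 on the same strand, so both rows are uncertain here and in the cultures.

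Mucus and partner genes were read beside the members. Of 10 listed mucin and mucus genes, 4 rose (with log2 changes of 1.27 for Muc1, 0.92 for Muc4, 0.79 for Clca1 and 0.40 for Muc13) and 4 fell (-1.95 for Zg16, -1.40 for Tff3, -1.27 for Fcgbp and -0.97 for Clca3). Their median was -0.16. Clca1 stood at only 3.22 to 7.13 CPM in controls, and Clca3 at 1200 to 1250 CPM. The symbols follow an older naming, so which gene the Clca1 row denotes is uncertain. Muc2, the main gel-forming mucin, had a log2 change of -0.18 and was not called. Of 33 genes of N-glycan precursor assembly, transfer and trimming, 9 rose and 2 fell (median 0.00), with the oligosaccharyltransferase subunit Stt3a (0.32) and the trimming mannosidase Man2a1 (0.56) among the rises. Of 22 nucleotide sugar genes, 4 rose and 4 fell (median -0.03). The rises held Gne (0.51) and Cmas (0.51), which make and activate sialic acid. Among the falls was Galk1 (-1.18), which phosphorylates galactose. Of 13 other terminal enzymes 0 rose and 5 fell (median -0.29), including B4galnt2 (-0.40), which makes the Sda antigen.

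Cell type markers moved with the knockout. Goblet markers summed to 14900 to 15500 CPM in controls and 9370 to 12200 CPM in knockouts. Of 10, 7 were called lower and 1 higher, the uncertain Clca1 row. Absorptive markers summed to 10600 to 12200 and 3870 to 8630 CPM, with 5 of 6 lower. Enteroendocrine markers summed to 231 to 301 and 147 to 162 CPM, with 4 of 5 lower. Epithelial markers gave 1 higher and 1 lower of 7 (14200 to 15000 CPM in controls, 10600 to 13300 CPM in knockouts), and leukocyte markers 1 higher and 2 lower of 7 (53.2 to 77.8 and 68.8 to 80.2 CPM). Their part in the members' changes was not tested. In bulk samples, fewer cells of a type and less RNA per cell cannot be told apart.

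**Figure D2:**
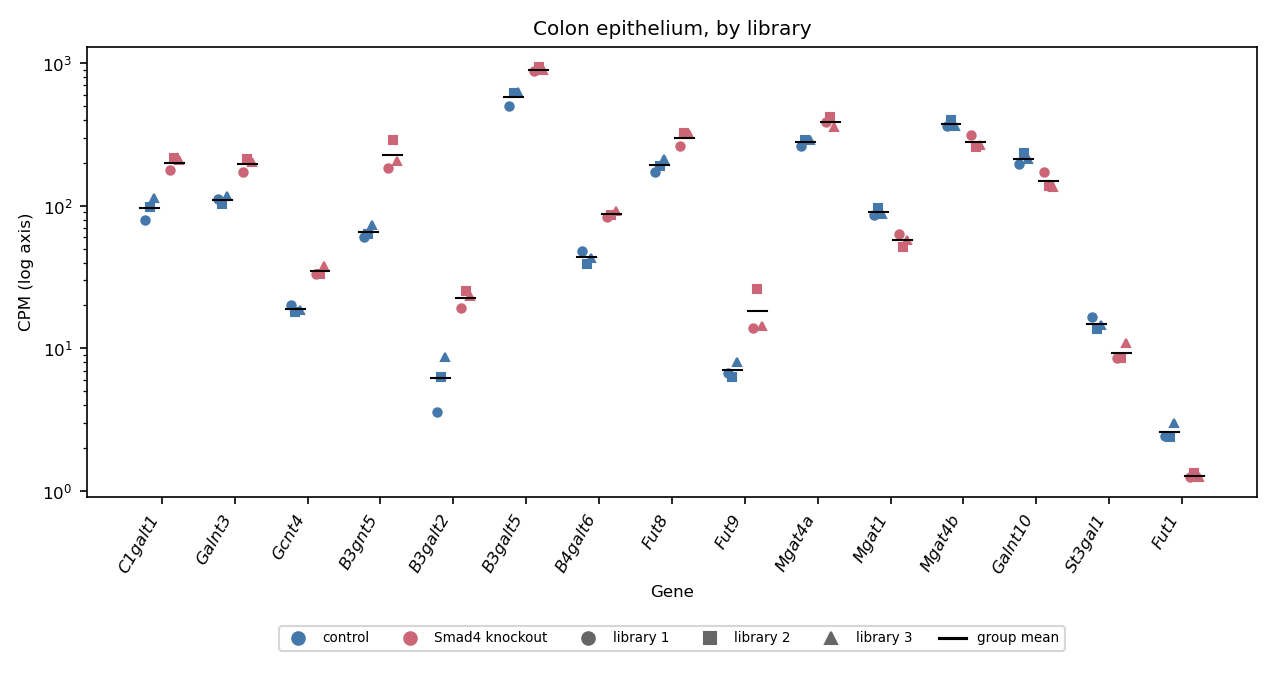
CPM of members in each epithelial library (points, log axis), for control and Smad4 knockout mice, with the group means marked. For C1galt1 the control libraries are at 79, 98.2 and 114 CPM and the knockout libraries at 177, 217 and 209 CPM, with no overlap.

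TGFB1 with BMP2 changed members of every role group in colonoids. Against vehicle, 17 of 54 listed members rose and 16 fell, where 28.0% of all genes were called higher and 28.7% lower. Added to TNF, the same ligands raised 16 and lowered 21 of 54, beside 26.4% and 27.7% of all genes. The median log2 change of the members was -0.03 and -0.04, against -0.02 and -0.03 over all genes. Against vehicle, the N-glycan branching enzymes gave 4 rises and 2 falls of 7, the Galnt enzymes 4 and 2 of 10, and the core and branch enzymes 2 and 0 of 7. Chain-extending enzymes gave 4 and 5 of 14. Of the caps, fucosyltransferases gave 0 rises and 3 falls of 6, and sialyltransferases 3 and 4 of 10. Scaled by total listed reads alone, the median of all genes shifted to -0.28 and -0.27, and the members split into 11 higher and 23 lower against vehicle and 12 and 23 when added to TNF (all genes 1997 and 5026, and 1912 and 4890). Changes below are therefore relative to the typical gene.

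C1galt1 stood at 85.7, 83 and 87.1 CPM in vehicle colonoids of lines L42, L43 and L46 and 346, 424 and 242 CPM with TGFB1 and BMP2. It rose by 1.93 log2 units (SE 0.20, adjusted p = 0.00146), a mean ratio of 3.96. Every treated line was above every vehicle line, and L46 moved least. With TNF present it went from 100.3, 77.7 and 104 to 399.9, 401 and 302 CPM, and it rose by 1.95 log2 units (SE 0.16, adjusted p = 0.00134). The gene spans chr6:7844842-7875687 on mm10.

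B4galt1, the main galactosyltransferase of N-glycan antennae, lies on the minus strand at chr4:40804602-40854005. It went from 112, 100.2 and 106 to 509.5, 691 and 283 CPM and rose by 2.12 log2 units (SE 0.30, adjusted p = 0.00288). The 3 vehicle lines were close together and the treated lines spread widely, with L43 highest and L46 lowest. Under TNF it went from 113, 108 and 111 to 531, 622 and 286 CPM, and it rose by 2.03 log2 units (SE 0.27, adjusted p = 0.00253). Its share of the summed B4galt level per kb was 26.9% ± 1.08 in vehicle and 65.2% ± 13.1 with TGFB1 and BMP2 (SD, n = 3), as a description.

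Gcnt2 had the largest rise of the members, from 24.8, 16.6 and 23 to 142, 125 and 76.6 CPM. It rose by 2.33 log2 units (SE 0.26, adjusted p = 0.00166), and rose by 2.01 log2 units (SE 0.27, adjusted p = 0.00261) when the ligands were added to TNF (47.5, 25.6 and 39.8 to 186, 164 and 110.3 CPM). The groups did not overlap in either comparison. Gcnt3 had log2 changes of -0.73 (SE 0.31, adjusted p = 0.0842) and -0.75 (SE 0.32, adjusted p = 0.0829), with overlap, and was called lower with line as a block (adjusted p = 0.0109 and 0.0244). Within the Gcnt family the share of Gcnt3 per kb was 66.3% ± 9.3 in vehicle and 38.4% ± 4.87 with TGFB1 and BMP2, while that of Gcnt2 was 5.57% ± 0.746 and 28.9% ± 8.49. Gcnt1 had log2 changes of 0.19 (SE 0.20, adjusted p = 0.45) and -0.13 (SE 0.27, adjusted p = 0.707), and B3gnt6 of 0.24 (SE 0.42, adjusted p = 0.647) and 0.21 (SE 0.38, adjusted p = 0.659).

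Galnt3 went from 143, 146 and 172 to 355, 384 and 297 CPM and rose by 1.16 log2 units (SE 0.13, adjusted p = 0.00162). Galnt1 went from 140.4, 151 and 132 to 303, 322 and 234 CPM and rose by 1.01 log2 units (SE 0.14, adjusted p = 0.00251). Both rose in all 3 lines and also under TNF (log2 changes 0.99 and 1.13). Galnt5 fell from 5.25, 9.09 and 3.16 CPM to 0.197, 0.0958 and 0.333 CPM, on 8, 5 and 18 reads in the treated lines. It fell by 2.41 log2 units (SE 0.33, adjusted p = 0.00251), and its log2 change under TNF was -2.15.

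The N-glycan branching enzymes moved in both directions. Mgat4a went from 233, 263 and 205 to 546, 727 and 449.8 CPM and rose by 1.27 log2 units (SE 0.19, adjusted p = 0.00321), with every treated line above every vehicle line. Mgat3, whose bisecting residue blocks further branching, went from 134, 118 and 112 to 49.9, 55.9 and 72.6 CPM and fell by 1.03 log2 units (SE 0.15, adjusted p = 0.0031), with no overlap. Under TNF the log2 changes were 1.25 for Mgat4a and -1.4 for Mgat3, both called. Mgat4b, the most abundant of its family per kb, had log2 changes of 0.12 (SE 0.14, adjusted p = 0.491) and 0.26 (SE 0.10, adjusted p = 0.0623). Mgat4c rose by 0.87 against vehicle, from 125, 138 and 104 to 274, 246 and 165 CPM without overlap. Mgat5 rose against vehicle (65.2, 54.3 and 68.2 to 82, 96.4 and 98.3 CPM, log2 change 0.55), a call lost with total listed reads as the scaling, and had a log2 change of 0.39 (SE 0.14, adjusted p = 0.0533) under TNF.

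Chain-extending enzymes other than B4galt1 split. B3gnt3 went from 191, 158 and 204 to 395, 389 and 322 CPM and rose by 1.00 log2 units (SE 0.13, adjusted p = 0.00243). B4galt4 went from 44, 44 and 36.5 to 7.59, 4.45 and 12.3 CPM and fell by 2.31 log2 units (SE 0.31, adjusted p = 0.00251). B4galt5, the main lactosylceramide synthase, went from 46.2, 55.2 and 47.1 to 18.4, 18.3 and 25.3 CPM and fell by 1.23 log2 units (SE 0.15, adjusted p = 0.00213). The groups were apart for all 3, so the B4galt family held both rises and falls. B4galt7, which builds the proteoglycan linker, had log2 changes of 0.55 (adjusted p = 0.00773) and 0.67 (adjusted p = 0.00728), and lost the first call with total listed reads as the scaling. B3galt5 had log2 changes of 0.19 (SE 0.43, adjusted p = 0.719) and -0.5 (SE 0.38, adjusted p = 0.297), with overlap between lines.

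Of 6 fucosyltransferases, 3 fell and 0 rose with TGFB1 and BMP2. Fut2 went from 70.7, 57.2 and 49.8 to 11.1, 11.9 and 22.1 CPM and fell by 1.96 log2 units (SE 0.27, adjusted p = 0.00264). Fut1 went from 10.2, 6.52 and 9.76 to 1.06, 0.287 and 2.06 CPM and fell by 2.27 log2 units (SE 0.34, adjusted p = 0.00323). Both add the fucose of the H antigen, and both were below the lowest vehicle value in every treated line. Under TNF both fell, with log2 changes of -2.21 and -2.17. Fut8 had log2 changes of -0.17 (SE 0.09, adjusted p = 0.134) and -0.21 (SE 0.11, adjusted p = 0.132), and its share of the summed Fut level per kb was 49.3% ± 3.29 in vehicle and 69.7% ± 4.16 with TGFB1 and BMP2. Fut9 had log2 changes of -0.31 (SE 0.67, adjusted p = 0.712) and -0.26 (SE 0.45, adjusted p = 0.642).

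Sialyltransferases went both ways. St6galnac1, which makes sialyl-Tn on mucins, went from 4.14, 3.48 and 3.15 to 0.0982, 0.115 and 0.185 CPM, the latter from 4, 6 and 10 reads. It fell by 2.01 log2 units (SE 0.17, adjusted p = 0.0011). St6galnac2 went from 55.1, 49.2 and 45.6 to 10.4, 8.12 and 15 CPM and fell by 2.1 log2 units (SE 0.21, adjusted p = 0.00146). Both stood apart in all 3 lines, and both fell under TNF (log2 changes -2.29 and -2.47). St3gal1 went from 31.6, 17 and 19.2 to 10.3, 8.6 and 9.09 CPM and fell by 1.14 log2 units (SE 0.23, adjusted p = 0.00774). St3gal2 and St3gal3 went the other way, from 1.29, 0.972 and 1.46 to 4.94, 7.86 and 3.74 CPM and from 57.6, 59.6 and 68.2 to 112, 140.5 and 110.1 CPM. Their log2 changes were 1.5 (adjusted p = 0.00457) and 0.95 (adjusted p = 0.00239), with no overlap. St6gal1, which caps N-glycans, had log2 changes of -0.14 (SE 0.49, adjusted p = 0.82) and 0.51 (SE 0.46, adjusted p = 0.374).

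Other calls were lost when a library was left out, which leaves 2 against 3. Against vehicle, 12 of the 33 calls were lost when some 1 library was left out, at adjusted p up to 0.111. These were rises of B3gnt2, Galnt11, Galnt12, Mgat1 and St6galnac6 and falls of B3galt6, B3gnt1, B3gnt5, Fut4, Galnt6, Mgat2 and St3gal4, with log2 changes from -1.47 (B3gnt5) to 1.15 (St6galnac6). Where its call was lost, the log2 change of B3gnt5 was -1.64 to -1.07 and that of St6galnac6 0.85 to 1.2, and no called member changed sign. Without TGFB1 and BMP2 line L42, 11 calls were lost, without vehicle L43 9, without vehicle L42 8, without vehicle L46 or treated L43 6 each and without treated L46 1. Total listed reads as the scaling also ended the calls of B3gnt2, Galnt11, Galnt12 and St6galnac6. Added to TNF, 14 of 37 calls were lost in the same way, at adjusted p up to 0.136: rises of B3gnt2, Galnt11, Gcnt4, Mgat1 and Mgat4c and falls of B3galt6, B3gnt7, C1galt1c1, Fut4, Galnt4, Mgat2, St3gal4, St3gal6 and St6galnac4. Total listed reads as the scaling ended those of B3gnt2, Galnt11, Gcnt4 and Mgat4c there. Without the L42 library given all 3 ligands, 24 members were called, beside 4177 of 11605 genes. Losses came to 13 there, 11 without TNF L43, 10 without TNF L42, 9 each without TNF L46 and L43 given all 3 ligands, and 3 without L46 given all 3. With line as a block, the falls of B3gnt7, C1galt1c1, St3gal6 and St6galnac4 and the rise of Gcnt4 were called against vehicle as well, at adjusted p from 0.00694 (B3gnt7) to 0.0407 (Gcnt4). Under TNF the block added a fall of B3galt5 (0.0176), and rises of Galnt10 (0.0388), Mgat5 (0.0152) and St6galnac6 (0.0143), and B3galt6 lost its call (adjusted p = 0.0555).

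**Figure D3:**
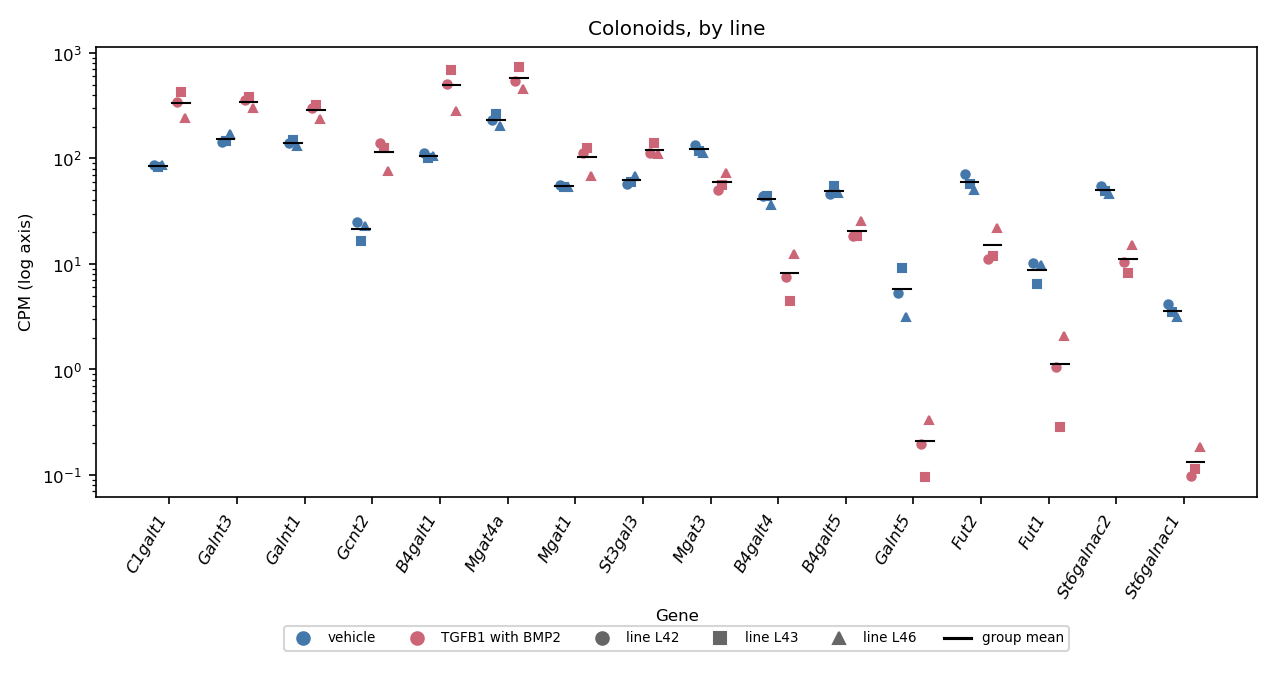
CPM of 16 members in each colonoid library (log axis) given vehicle or TGFB1 with BMP2; the shape of a point gives the line and the bar the group mean. For B4galt1 the vehicle lines sit at 112, 100.2 and 106 CPM and the lines given TGFB1 and BMP2 at 509.5, 691 and 283 CPM, with L46 nearest to vehicle.

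The 2 colonoid comparisons of TGFB1 with BMP2 share no library. Of the 17 members raised against vehicle, 15 also rose when the ligands were added to TNF (88.2% of the first list and 93.8% of the second), and the 16 that fell all fell again (100% and 76.2%). Over all called genes the shares were 86.6% and 92.3% for rises and 85.9% and 89.1% for falls. Both comparisons used the same 3 lines. No member rose in one and fell in the other.

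Genes of the surrounding pathways were read in the same comparisons. Of 33 genes of N-glycan precursor assembly, transfer and trimming, 2 rose and 17 fell against vehicle (median -0.30), and 2 rose and 18 fell when added to TNF (-0.28). Among the falls were the oligosaccharyltransferase subunits Ddost (-0.96) and Rpn2 (-0.78) and the glucosidase Mogs (-1.02). Of 22 nucleotide sugar genes, 2 rose and 3 fell (2 and 6 when added to TNF), with Cmas at 0.61 among the rises and the CMP-sialic acid transporter Slc35a1 at -1.06 among the falls. Other terminal enzymes gave 1 rise, Abo (1.22), and 7 falls of 15 (0 and 6 of 14), with the sulfotransferase Chst4 at -1.88. Of 10 mucus genes 1 rose and 7 fell (median -1.30), and 1 and 9 when added to TNF (-1.58). Muc4 rose (1.17), and Muc2 (-2.31) and the mucin-folding protein Agr2 (-4.93) fell. Goblet markers were lower (912 to 1600 CPM summed in vehicle, 235 to 303 with TGFB1 and BMP2, 9 of 10 called) and epithelial markers higher (8810 to 10600 and 24800 to 33800 CPM, 7 of 7). Absorptive markers gave 2 falls of 5. Their part in the members' changes was not tested.

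**Figure D4:**
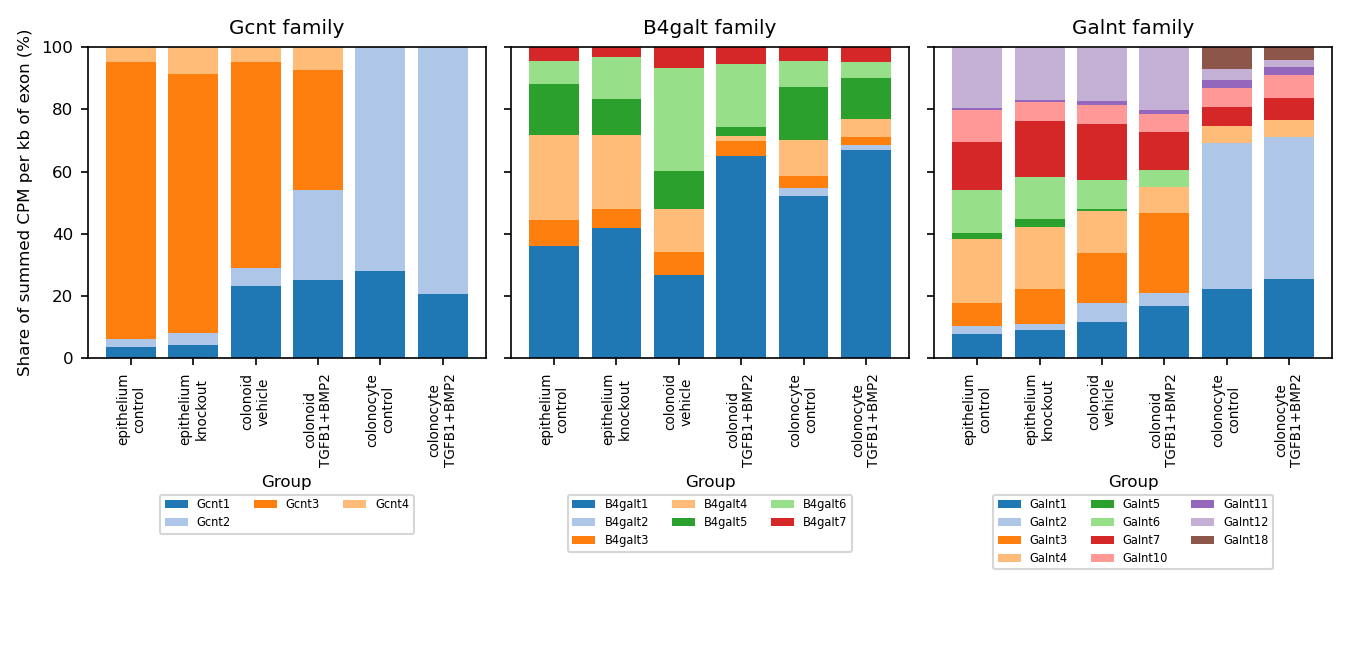
Share of each member in the summed CPM per kb of exon of the Gcnt, B4galt and Galnt families (percent, mean of 3 libraries) in 6 groups, with unlisted members counted as 0. In colonoids the B4galt1 share was 26.9% ± 1.08 in vehicle and 65.2% ± 13.1 with TGFB1 and BMP2.

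In the cultures labelled colonocytes, TGFB1 with BMP2 raised 13 and lowered 9 of 44 listed members against control, beside 15.9% and 14.3% of all genes. Added to TNF, the ligands again raised 13 and lowered 9 of 44, beside 16.4% and 15.6%. Median log2 changes were -0.03 and 0.01 for the members and 0.00 and -0.01 for all genes. Sialyltransferases gave 4 rises and 1 fall of 9 and core and branch enzymes 0 and 3 of 4. With total listed reads as the scaling the splits were 8 and 12, and 11 and 12 (all genes 1228 and 2896, and 1266 and 3065).

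St6gal1 went from 33.7, 31.4 and 32 to 68.5, 68.6 and 55.8 CPM and rose by 0.96 log2 units (SE 0.08, adjusted p = 8.14e-07), the largest rise of a member here. B4galt1 went from 209.5, 209 and 187 to 407, 393 and 338 CPM and rose by 0.91 log2 units (SE 0.07, adjusted p = 3.96e-07). All treated libraries of both were above all controls, and added to TNF they rose by 1.00 and 0.93 (176, 184 and 178 to 359, 360.0 and 314 CPM for B4galt1). Mgat3 went from 17.7, 17.5 and 11.2 to 4.77, 4.62 and 5.08 CPM and fell by 1.47 log2 units (SE 0.14, adjusted p = 4e-06), the largest fall. Control library 3 was lower than the other 2 controls, and still above every treated library. Added to TNF, the ligands again lowered Mgat3 (log2 change -0.97).

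Other members changed less. St6galnac4, B4galt7 and Mgat5 had log2 changes of 0.55, 0.54 and 0.53 against control, and Galnt10 and St3gal2 of 0.32 and 0.26; all 5 rose without overlap. Their mean CPM in control and treated cultures were 11.5 ± 0.552 and 17.4 ± 0.57 for St6galnac4, 12.2 ± 0.486 and 18.2 ± 1.06 for B4galt7 and 11 ± 0.546 and 16.3 ± 0.619 for Mgat5 (SD, n = 3). The largest falls after Mgat3 were in St3gal6 (40.4, 41.5 and 41.3 to 22.8, 24.6 and 23.4 CPM, log2 change -0.77), Galnt18 (20.4, 21.1 and 19.2 to 10.8, 11.1 and 12.3 CPM, -0.77) and Gcnt1 (35.1, 35.1 and 29.4 to 21.6, 18.9 and 18.2 CPM, -0.73), none with overlap. The St3gal6 row is uncertain here and in colonoids, as 26% of its exon bases lie opposite those of Dcbld2. Galnt12 and B4galt4 also fell (log2 changes -0.5 and -0.45). C1galt1 had log2 changes of 0.09 (SE 0.07, adjusted p = 0.391) and 0.12 (SE 0.07, adjusted p = 0.253), Galnt4 of -0.02 (SE 0.08, adjusted p = 0.861) and -0.02 (SE 0.07, adjusted p = 0.848), Mgat4a of -0.29 (SE 0.14, adjusted p = 0.132) and -0.24 (SE 0.13, adjusted p = 0.178), and Fut8 of -0.01 (SE 0.07, adjusted p = 0.96) and 0.19 (SE 0.07, adjusted p = 0.0634). St3gal1 had 0.23 (SE 0.09, adjusted p = 0.0804) against control and rose by 0.38 log2 units (SE 0.08, adjusted p = 0.00346) when the ligands were added to TNF (79, 84.3 and 70.1 to 106, 109 and 89.2 CPM). With the replicate block, Fut8 was called higher when the ligands were added to TNF (adjusted p = 0.0332).

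Of the 22 calls against control, 7 were lost when 1 library was left out (B3gnt2, B3gnt9, B4galt5, C1galt1c1, Galnt1, Gcnt2 and St3gal4), at adjusted p up to 0.214, and of the 22 when added to TNF, 6 were (B3gnt1, B4galt6, B4galt7, Galnt7, Gcnt2 and St3gal4), up to 0.168. Losses against control came to 5 each without TGFB1 and BMP2 libraries 1 and 2, 4 each without treated library 3 and control 2, 2 without control 1 and 1 without control 3. Added to TNF, they came to 4 each without TNF 1, TNF 2 and library 2 given all 3 ligands, 3 without library 1 given all 3, and 2 each without TNF 3 and library 3 given all 3. Total listed reads as the scaling ended 5 calls against control (B3gnt2, B3gnt9, B4galt5, Galnt1 and St3gal4) and 2 when added to TNF (St3gal2 and St3gal4). Against control, N-glycan precursor genes gave 9 rises and 3 falls of 34 (median 0.08), with Stt3a (0.25) and Rpn1 (0.18) among the rises, and nucleotide sugar genes gave 8 rises and 2 falls of 23, with Gfpt2 at 0.95 and Uap1 at 0.69. When added to TNF the counts were 11 and 3 of 34, and 8 and 2 of 23. Other terminal enzymes gave 0 rises and 3 falls of 12 and, added to TNF, 1 and 3 of 11. Cell type markers moved too. Of 7 stromal genes Col1a1 and Col1a2 rose and Col3a1 and Dcn fell against control (6930 to 7430 CPM summed in controls, 7180 to 7810 CPM with the ligands). Of 3 epithelial genes Krt8 rose and Krt19 fell (33.8 to 45.9 and 27.3 to 30.8 CPM). Kdr, the 1 endothelial gene listed, rose from 3.13 to 4.53 CPM in controls to 20 to 20.9 CPM. The 1 leukocyte gene listed was not called (36.3 to 48.5 and 36.5 to 38 CPM). Their part in the members' changes was not tested.

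Members called in both kinds of culture with TGFB1 and BMP2 went partly the same way and partly opposite ways. Against untreated cultures, 6 rose in both (B3gnt2, B4galt1, B4galt7, Galnt1, Mgat5 and St3gal2), which is 46.2% of the rises in cultures labelled colonocytes and 35.3% of those in colonoids. The 3 that fell in both were B3gnt1, B4galt4 and Mgat3 (33.3% and 18.8%). Another 3, B4galt5, Mgat2 and St3gal4, rose in cultures labelled colonocytes and fell in colonoids, and 2, Galnt12 and Gcnt2, did the reverse. Over all called genes, 43.1% of the rises in cultures labelled colonocytes and 24.4% of those in colonoids were shared, and 24.2% and 12.1% of the falls. Of the rises in cultures labelled colonocytes 12.9% fell in colonoids, and of the falls 21.3% rose. Each of the 5 members that went opposite ways lost its call in at least 1 system when 1 library was left out (B4galt5 and Gcnt2 in cultures labelled colonocytes, Galnt12 and Mgat2 in colonoids, St3gal4 in both). So did 3 of the 9 that went the same way (B3gnt2 in both, Galnt1 in cultures labelled colonocytes, B3gnt1 in colonoids). The calls of B4galt1, Mgat3 and B4galt4 stood with any 1 library left out in both. The 2 systems were normalized separately, and differences between them were not tested.

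**Figure D5:**
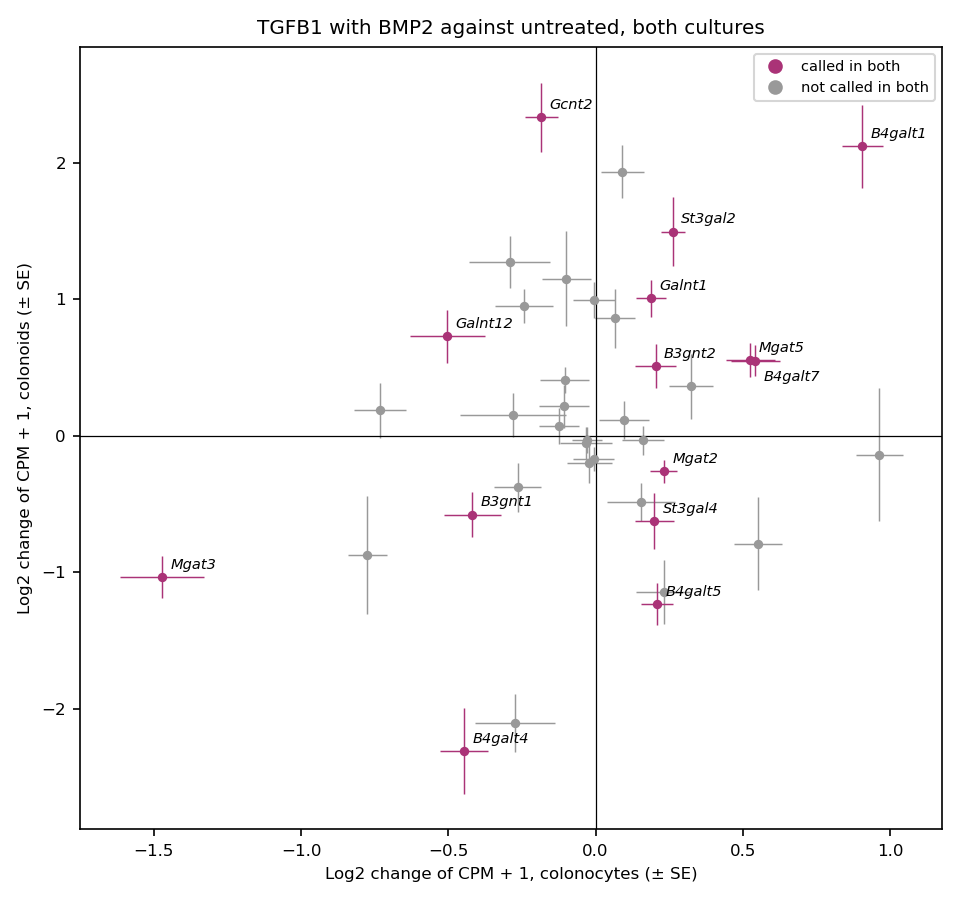
Log2 change of the members listed in both cultures with TGFB1 and BMP2 against untreated, in colonoids (vertical) and cultures labelled colonocytes (horizontal), on the log2(CPM + 1) scale with SE bars, coloured where called in both. In this order, B4galt1 lies at 2.12 and 0.91, and Gcnt2 at 2.33 and -0.18.

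The Smad4 knockout and TGFB1 with BMP2 in colonoids share no library and differ in tissue and ligand. Of the 16 members higher in the knockout, 7 rose in colonoids given TGFB1 and BMP2 (B4galt1, C1galt1, Galnt1, Galnt3, Gcnt2, Mgat4a and Mgat5), which is 43.8% and 41.2% of the 2 lists. Of the 10 lower, 4 fell in colonoids (B3gnt1, B4galt5, Fut1 and St3gal1; 40% and 25%). Over all called genes the shares were 34.9% and 24.6% for rises and 33.7% and 23.4% for falls. Left-out libraries ended the knockout calls of B4galt1, Galnt1, Mgat5, B3gnt1 and B4galt5, and the colonoid call of B3gnt1. B3gnt5 rose in the knockout and fell in colonoids (6.25% of the knockout rises), and B3gnt2 and Mgat1 did the reverse (20% of the falls). Over all called genes, 20.6% of the knockout rises fell in colonoids and 19.5% of the knockout falls rose. B3gnt5, B3gnt2 and Mgat1 lost their colonoid call, and B3gnt2 its knockout call, when 1 library was left out. C1galt1 had log2 changes of 1.05 in the knockout and 1.93 in colonoids, Galnt3 of 0.82 and 1.16, and Gcnt2 of 0.6 and 2.33.

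TNF alone gave few calls among the members in the main fits, which ignore pairing. Untreated and TNF libraries of the same number or line were regarded as paired, and the fits with a block use that pairing. In cultures labelled colonocytes 3 of 44 rose and 0 fell, where 4.61% of all genes were called higher and 1.67% lower. St3gal1 went from 57.1, 59.6 and 49.3 to 82.2, 87.7 and 73 CPM and rose by 0.54 log2 units (SE 0.08, adjusted p = 0.00197). B4galt5 went from 66.7, 68.5 and 66.7 to 86.2, 87.8 and 82.4 CPM and rose by 0.34 log2 units (SE 0.05, adjusted p = 0.00132). St3gal2 went from 289, 289.8 and 293 to 345, 344 and 356 CPM and rose by 0.26 log2 units (SE 0.04, adjusted p = 0.00155), and no group overlapped. With replicate number as a block, 5 members rose and 8 fell, beside 11.5% higher and 8.80% lower over all genes. The further rises were Mgat4b and St3gal3, and the falls were Mgat3, B3gnt1, B3gnt9, B4galt1, Gcnt1, Fut8, St3gal4 and St6gal1. B4galt1 had a log2 change of -0.13 (SE 0.05, adjusted p = 0.185) without the block and an adjusted p of 0.00237 with it. Without control library 3, 7 members were called, beside 1217 of 11587 genes. Nucleotide sugar genes gave 3 rises and 0 falls of 23, with Gfpt2 at 1.08 and Uap1 at 0.34.

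In colonoids TNF gave 0 calls among 55 members by limma, where 0.120% of all genes were called higher and 0.0171% lower. At an unadjusted limma p under 0.05 there were 6 of 55 members, beside 514 of 11688 genes. Calls by edgeR and DESeq2 were 0 each among the members, beside 16 and 116 over all genes. In the authors' deposited table, 1 member, Gcnt2, was higher and 0 were lower at an FDR under 0.05, beside 88 genes in either direction. With line as a block 2 members rose and 6 fell, beside 3.76% and 2.39% of all genes. The rises were Gcnt2 (27.5, 18.1 and 25.2 CPM in vehicle and 52.1, 28 and 43.8 CPM with TNF, adjusted p = 0.813 without the block and 0.000411 with it) and B4galt6, and the falls were Fut2, Galnt6, Galnt7, Mgat4c, St3gal4 and St6gal1. Gcnt2 was higher with TNF in each line, and its groups did not overlap. C1galt1 had a log2 change of 0.13 (SE 0.12, adjusted p = 1) and B4galt1 of 0.07 (SE 0.07, adjusted p = 1). None of the pathway or mucus genes was called by limma, and goblet markers summed to 1000 to 1770 CPM in vehicle and 828 to 1470 CPM with TNF.

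The change with TGFB1 and BMP2 was also compared with and without TNF, in 1 fit over the 12 libraries of each culture. The interaction was called by limma for 0 of 44 members in cultures labelled colonocytes and 0 of 54 in colonoids, where 0.00875% and 0% of all genes were called. At an unadjusted limma p under 0.05 there were 2 and 1 members, beside 356 of 11434 and 84 of 11413 genes. Calls by edgeR were 0 in both, for the members and over all genes. The lowest adjusted p of a member was 1 in both. With a replicate block, 0 members were called in either culture, beside 0.262% of all genes in cultures labelled colonocytes and 0% in colonoids, and the lowest limma adjusted p of a member was 0.415 and 0.627.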

How the data were processed

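The authors deposited 7 tables of 6 libraries each, with CPM per library as a signal scaled to an effective library size in each table on its own. Per the file headers, log2 fold changes, log2 mean CPM, p-values and FDR of the authors' own tests stand in them too. The submitters' processing notes name the build mm10, edgeR 3.4.2, HTSeq 0.5.4p5, TopHat2 2.1.0, SAMtools 1.3.1, bcl2fastq 2.16 and CASAVA; how counting treated strand is not stated in these sources. Values were whole multiples of 1 read, and 100% came out within 0.05 of a whole read. The members and lists were chosen with earlier results of these data known.

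Samples were grouped by their titles. The main test was limma (eBayes with trend, two-sided) within each table, on log2(CPM + 1), keeping genes whose CPM averaged at least 1, with Benjamini-Hochberg adjustment over all genes and a threshold of 0.05. Interactions used recovered reads, scaled by TMM. Alternatives were a pseudocount of 0.25, no filter, total listed reads as scaling, edgeR quasi-likelihood and DESeq2 on recovered reads, a replicate block, each library left out, and lines L42 and L43 alone. Named members were, per comparison, up to 10 largest rises and falls with groups apart, and a set list of enzymes. The main fits held no block, so their SE and p-values ignore line and replicate number, and only the replicate block used pairing. Same-numbered samples were regarded as paired in colonoids, which share a line (correlations of their deviations 0.271 to 0.940, others -0.768 to 0.195). In colonocytes this held for control with TNF (0.277, 0.273 and 0.526) and, less surely, TNF with all 3 ligands (0.172, 0.161 and 0.413). There, TNF library 2 with library 1 given all 3 ligands reached 0.218. Pairing was not assumed for control with TGFB1 and BMP2 in colonocytes (0.256, 0.049 and 0.255) or in epithelium (-0.006 to 0.123).

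Exon lengths and positions came from an mm10 annotation (59 members) and promoters from RefSeq. Versions were Python 3.11.15 (pandas 2.3.3, numpy 2.4.6, matplotlib 3.10.9) and R 4.3.3 (DESeq2 1.42.0, edgeR 4.0.16, limma 3.58.1).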

Additional observations from a re-analysis of the deposited data

Results flagged for a closer look

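For 12 pairs of changes with TGFB1 and BMP2, all colonoid libraries moved one way and all libraries of cultures labelled colonocytes the other way. The difference between systems was not tested, and such pairs were not counted over all genes. Over all called genes, 12.9% of the rises in cultures labelled colonocytes against control fell in colonoids against vehicle, and 21.3% of the falls rose. With the ligands added to TNF these shares were 13.6% and 19%. Values are the log2 change in colonoids minus that in cultures labelled colonocytes. Against untreated cultures the differences were 2.52 for Gcnt2 (2.33 and -0.18), 1.23 for Galnt12 (0.73 and -0.50), -1.44 for B4galt5 (-1.23 and 0.21), -0.82 for St3gal4 (-0.62 and 0.20) and -0.49 for Mgat2 (-0.26 and 0.23). When the ligands were added to TNF they were 2.158 for Gcnt2 (2.01 and -0.15), 1.22 for Galnt12 (0.70 and -0.53), 0.50 for Galnt11 (0.36 and -0.14) and -0.54 for Mgat2 (-0.30 and 0.24). For the sialyltransferases, that comparison gave -1.53 for St6galnac4 (-1.004 and 0.52), -1.49 for St3gal1 (-1.11 and 0.38) and -1.05 for St3gal4 (-0.78 and 0.27). Galnt11 was not called in cultures labelled colonocytes (adjusted p = 0.154 by limma). Of the others, B4galt5, Gcnt2, St3gal4, Galnt12, Mgat2 and St6galnac4 lost a call in at least 1 system when 1 library was left out, as did Galnt11 in colonoids.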

How the results depend on the processing

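No called member changed direction under any alternative run. Pseudocount 0.25 and no filter gave the same counts of called members as reported. Counts moved by over 1.5 times under 5 settings: with the replicate block, 13 members were called for TNF in cultures labelled colonocytes and 8 for TNF in colonoids; without control replicate 2, 17 in the knockout; without control replicate 3, 7 for TNF in cultures labelled colonocytes; and without TNF, TGFB1 and BMP2 line L42, 24 in colonoids. As listed, these settings called 2356, 718, 2721, 1217 and 4177 of all genes. The main fits called 728, 16, 4611, 728 and 6278. Leaving out 1 library gave 17 to 30 members in the knockout, 3 to 7, 17 to 23 and 18 to 21 in cultures labelled colonocytes (TNF, TGFB1 with BMP2, and these added to TNF), 0 to 0, 23 to 34 and 24 to 39 in colonoids in the same order, and 0 for both interactions. The replicate block added B4galt3 and Galnt5 in the unpaired epithelium (28 called) and St3gal1 in the unpaired colonocytes with TGFB1 and BMP2 (23 called); beyond these and the calls named above it changed none. Lines L42 and L43 alone ended the calls of St3gal4 against vehicle and of B3gnt7 and St6galnac4 when added to TNF in colonoids, edgeR that of St3gal6 there, and DESeq2 that of B3gnt1 in colonocytes when added to TNF. Depth limits Galnt5 and St6galnac1, which rested on few reads in treated colonoids.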
